A study of Homo sapiens with 12 samples.

Results

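The genes described here are 10 genes of the actin cytoskeleton and of the transcription factors SRF and YAP: TAGLN, TAGLN2, CNN1, CNN2, TPM1, FLNA, FLNC, CTGF, CYR61 and EMP1. They are the rows of the deposited raw count table with these symbols, 10 of 53712 named genes, and all 10 passed the filter on low counts, as did 17228 genes in all. The list was proposed with their values in these libraries already known, so their levels and differences are given as a description. Where calls from the fit across all genes are counted for them, the counts describe the choice and support nothing. The label is a working name: that SRF, YAP or actin acted on these genes in these cells was not measured.

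The RNA came from H9 cells, a long-established line of human embryonic stem cells (hESC), cultured in RSeT, a medium sold for naive pluripotency. The 3 groups differed in the oligonucleotide that was transfected at 25 nM. ASO-Ctr was a control antisense oligo without a specific target, SO-L1 a sense oligo and ASO-L1 an antisense oligo for LINE1 (L1), a family of transposable elements whose part in the expression of 8-cell-stage genes the study set out to examine. All groups, the controls included, also received 10 nM DZNep and 5 nM TSA. DZNep blocks S-adenosylhomocysteine hydrolase and with it methylation reactions, and TSA inhibits histone deacetylases. For the first 24 h all cultures further contained trans-ISRIB, emricasan and the ROCK inhibitor Y-27632, which bears on actin contractility because ROCK is the kinase through which the small GTPase RHOA acts on myosin. Cells were harvested 48 h after transfection without sorting for transfected cells, so untransfected cells are part of each sample. Each group had 4 poly(A) RNA libraries numbered 1 to 4, all of 1 cell line, and the labels do not say whether the numbers stand for separate cultures. The p-values below therefore measure the spread between these libraries. L1 RNA itself was not analysed here.

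Transgelins, calponins and tropomyosins bind along actin filaments, and filamins cross-link them. Monomeric actin holds the SRF cofactors MKL1 and MKL2 (also called MRTFA and MRTFB) in the cytoplasm. When RHOA signalling drives actin into filaments, these cofactors are released and act with SRF at the CArG box, a DNA element in the promoters of many actin and contractile genes. YAP and its relative TAZ (gene WWTR1) enter the nucleus when the Hippo kinases LATS1 and LATS2 do not phosphorylate them, and there bind DNA through the TEAD proteins. CTGF and CYR61, secreted matrix-associated proteins of the CCN family, are the standard YAP target genes, and both are also known to respond to SRF. EMP1 is a membrane protein of the PMP22 family.

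Promoter sequences of 8 of the 10 genes were found in a RefSeq table of 35116 promoters (build GRCh38.p14, 300 bases each, from 250 before to 50 after the start site), and TAGLN and CYR61 had none there. The 4 sequences below are shown because they hold the letters of the elements by which SRF and TEAD are known to bind. Each is printed 5′ to 3′ on the strand of its gene, with the matches in capitals. Matches were sought on both strands for the CArG box, taken as CC, then 6 bases of A or T, then GG, and for GGAATG, the core of the TEAD site. The first is CNN2 at chr19:1026358-1026657 (plus strand), and the second is FLNA at chrX:154374585-154374884 (minus strand). The third is FLNC at chr7:128830156-128830455 (plus strand), and the fourth is CTGF at chr6:131951323-131951622 (minus strand).
CNN2: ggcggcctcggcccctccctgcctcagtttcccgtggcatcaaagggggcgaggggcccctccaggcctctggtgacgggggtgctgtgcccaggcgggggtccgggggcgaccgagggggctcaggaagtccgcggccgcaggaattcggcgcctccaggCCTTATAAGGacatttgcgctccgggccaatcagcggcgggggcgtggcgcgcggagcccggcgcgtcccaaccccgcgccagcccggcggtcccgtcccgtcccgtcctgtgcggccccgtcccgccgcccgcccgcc
FLNA: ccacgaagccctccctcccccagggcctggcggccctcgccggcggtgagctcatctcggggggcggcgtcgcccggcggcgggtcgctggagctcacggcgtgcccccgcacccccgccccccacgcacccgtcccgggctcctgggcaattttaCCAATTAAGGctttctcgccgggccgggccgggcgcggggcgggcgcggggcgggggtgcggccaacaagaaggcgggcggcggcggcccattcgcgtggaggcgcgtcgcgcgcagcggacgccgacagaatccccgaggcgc
FLNC: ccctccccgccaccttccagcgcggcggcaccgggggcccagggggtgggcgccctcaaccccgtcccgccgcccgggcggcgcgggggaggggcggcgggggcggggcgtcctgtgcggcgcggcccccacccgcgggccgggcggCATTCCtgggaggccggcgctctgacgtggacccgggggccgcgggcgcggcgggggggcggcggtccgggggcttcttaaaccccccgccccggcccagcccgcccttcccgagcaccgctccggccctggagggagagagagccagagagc
CTGF: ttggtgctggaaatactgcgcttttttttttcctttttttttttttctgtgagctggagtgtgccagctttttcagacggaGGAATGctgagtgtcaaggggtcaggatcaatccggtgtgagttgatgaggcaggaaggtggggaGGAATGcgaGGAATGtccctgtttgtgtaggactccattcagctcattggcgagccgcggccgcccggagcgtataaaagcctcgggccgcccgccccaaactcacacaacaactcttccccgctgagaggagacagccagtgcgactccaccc
CNN2 held the CArG box CCTTATAAGG at positions -89 to -80 from the start site and FLNA the CArG box CCAATTAAGG at -94 to -85. Such a box was in 1.29% of all promoters of the table. CTGF held GGAATG 3 times, beginning at -169, -104 and -95, and FLNC held it 1 time on the other strand, as CATTCC at -103 to -98. GGAATG was in 14.0% of all promoters. CNN1, TPM1, TAGLN2 and EMP1 had no match to either in the promoters of the table. TAGLN2, in 2 of its 3 promoters, and EMP1, 2 times in its 1 promoter, held the AP-1 site TGANTCA, which was in 7.71% of all promoters. Whether such matches go with the differences given below was not tested, and no promoter of TAGLN or CYR61 could be searched. A match is a description of letters only, and sites outside the window were not searched.

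Library totals ran from 20367989 to 32180891 counts. Levels are given as CPM, normalised read counts scaled to a common library total with TMM factors. Across the groups the libraries numbered 1 and 2 varied together, as did those numbered 3 and 4, and these are called the 2 sets here. After the group means were removed, libraries of different groups correlated across genes at 0.450 to 0.561 within a set and at -0.530 to -0.426 between the sets. Within ASO-Ctr the division was less clear: library 1 was as far from library 2 (chi-square per degree of freedom 17.7) as from libraries 3 and 4 (18.0 and 15.4). What the sets share is not stated in the labels. Every group has 2 libraries of each set, so values within the sets are given beside those over all 4 libraries. All 7 pluripotency markers examined, among them POU5F1, NANOG and SOX2, were present in every group, with summed levels of 5467 to 6283 CPM in ASO-Ctr, 5337 to 6078 CPM in SO-L1 and 4918 to 5579 CPM in ASO-L1.

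Of the 10 genes, 7 were higher in ASO-L1 than in ASO-Ctr at an adjusted p under 0.05, the threshold used throughout, and none was lower. Over all genes tested 22.3% were called in either direction and 11.6% were called higher. Because the list was chosen on these values, nothing is read from the difference. The median log2 fold change of the 10 genes was 0.95, against -0.00 for all genes. The 7 were FLNC, EMP1, CNN1, TAGLN, CYR61, TAGLN2 and CTGF, in falling order of their difference. In each of the 7, all 4 ASO-L1 libraries lay above all 4 ASO-Ctr libraries, which 13.3% of all genes tested did. With the replicate number as a block in the fit, 9 of the 10 were called higher, TPM1 and FLNA being added, while 45% of all genes were called.

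**Figure D1:**
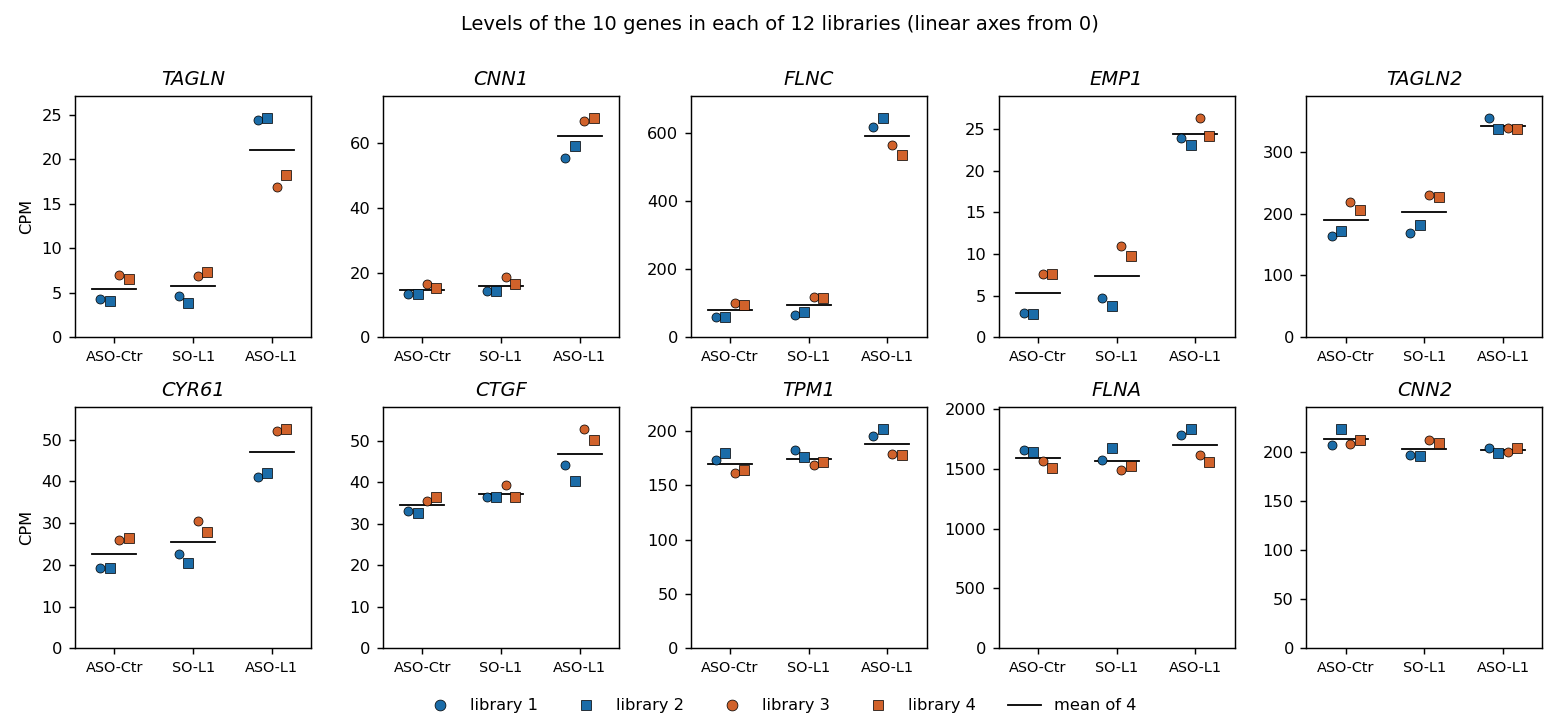
Level of each of the 10 genes (CPM, linear axes from 0) in the 12 libraries by oligo group; blue points are libraries 1 and 2, orange points libraries 3 and 4, and lines mark the mean of 4 libraries. In 7 panels the ASO-L1 points lie above all others, as in FLNC with 535 to 646 CPM against 60.1 to 119 CPM, whereas FLNA, TPM1 and CNN2 keep nearly the same level.

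Transgelins and calponins are small proteins that bind along actin filaments. TAGLN, also called SM22 alpha, is a classic SRF target of smooth muscle. Its level was 4.28, 4.03, 7.04 and 6.53 CPM in ASO-Ctr libraries 1 to 4 and 4.65, 3.88, 6.91 and 7.37 CPM in the SO-L1 libraries. In the ASO-L1 libraries it was 24.5, 24.7, 16.9 and 18.3 CPM. The controls of both kinds were low in libraries 1 and 2 and higher in 3 and 4, whereas ASO-L1 had the opposite order, and no ASO-L1 library overlapped a control. The log2 fold change of ASO-L1 over ASO-Ctr was 1.95 ± 0.23 (SE, n = 4 per group), or 3.85-fold. Within libraries 1 and 2 it was 5.94-fold and within libraries 3 and 4 it was 2.59-fold. TAGLN rested on 540 counts over the 4 ASO-Ctr libraries and 2338 over the ASO-L1 libraries. On the opposite strand its exons share 442 bases, 18.4% of their merged length, with PCSK7, and the sources used here do not give the strand setting of the counting. PCSK7 had a log2 fold change of -0.09 ± 0.11 (adjusted p = 0.62).

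TAGLN2, the transgelin of non-muscle cells, stood at 163, 172, 219 and 206 CPM in ASO-Ctr and at 169, 181, 230 and 226 CPM in SO-L1. The ASO-L1 libraries had 355, 336, 339 and 338 CPM. The difference between the sets seen in both control groups was absent from ASO-L1, and the groups did not overlap. TAGLN2 was 1.80-fold higher in ASO-L1 than in ASO-Ctr (log2 fold change 0.85 ± 0.11), with 2.06-fold in libraries 1 and 2 and 1.596-fold in libraries 3 and 4. Its processed copy TAGLN2P1 had 63 counts over all libraries, 0.0826% of those of TAGLN2.

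CNN1, the calponin of smooth muscle, damps the actin-activated myosin ATPase. CNN1 had 13.3, 13.3, 16.4 and 15.2 CPM in ASO-Ctr and 14.4, 14.2, 18.6 and 16.3 CPM in SO-L1. In ASO-L1 it had 55.4, 59.1, 67.1 and 68.0 CPM. All 4 ASO-L1 libraries stood far above every control library. The 4.29-fold difference from ASO-Ctr (log2 fold change 2.10 ± 0.10) was nearly equal in the 2 sets, 4.31-fold and 4.29-fold. CNN1 thus had the smallest standard error of the 4 genes with the largest differences.

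CNN2, the calponin found in many cell types, was the exception of this group. Its levels were 208, 224, 208 and 212 CPM in ASO-Ctr, 197, 196, 212 and 209 CPM in SO-L1 and 204, 199, 200.4 and 204 CPM in ASO-L1. The ASO-L1 libraries lay just under the lowest ASO-Ctr library but within the range of SO-L1. The log2 fold change was -0.08 ± 0.04 against ASO-Ctr and -0.01 ± 0.04 against SO-L1. All libraries below all controls was the case for 12.2% of the genes tested against ASO-Ctr. The paralogs CNN1 and CNN2 thus had 4.29-fold and 0.948-fold the ASO-Ctr level in ASO-L1. Of the 12 CNN2 pseudogenes in the table, CNN2P1 had 77 counts and CNN2P9 had 31, against 63080 for CNN2.

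TPM1 encodes a tropomyosin, a coiled coil that lies along the actin filament and sets which other proteins bind it. TPM1 measured 173, 180, 162 and 164 CPM in ASO-Ctr, 182, 176, 168 and 171 CPM in SO-L1 and 195, 202, 179 and 177 CPM in ASO-L1. The ASO-L1 and ASO-Ctr ranges overlapped, because libraries 1 and 2 were the higher ones in each group. Number by number ASO-L1 was higher in 4 of 4 pairs, by 1.08- to 1.124-fold, as in 26.1% of all genes tested. The log2 fold change was 0.15 ± 0.05. TPM1 was not called over all 12 libraries, but was with the replicate block, within either set and without ASO-Ctr library 2 or ASO-L1 library 3. The counts sum all TPM1 isoforms, and TPM1-AS on the opposite strand covers 23.5% of the merged exons, so isoforms were not analysed here.

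Filamins are long dimers that join actin filaments into networks and tether them to membrane receptors. FLNA, the filamin of most cells, was the most abundant of the 10 genes, at 1651, 1641, 1566 and 1501 CPM in ASO-Ctr, 1572, 1670, 1487 and 1524 CPM in SO-L1 and 1782, 1832, 1615 and 1553 CPM in ASO-L1. ASO-L1 was higher at each of the 4 numbers, by 1.03- to 1.116-fold, which was so in 26.1% of all genes tested. Libraries 3 and 4 of ASO-L1, however, lay within the ASO-Ctr range. In log2 fold change this was 0.09 ± 0.06, and the sets gave 1.097-fold and 1.04-fold.

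FLNC, the filamin of striated muscle, had the largest difference of the 10 genes. It measured 60.1, 60.4, 102 and 94.0 CPM in ASO-Ctr and 65.5, 73.7, 119 and 116 CPM in SO-L1. In ASO-L1 it measured 619, 646, 565 and 535 CPM. Every ASO-L1 library had more than 4 times the level of the highest control library. The log2 fold change from ASO-Ctr was 2.90 ± 0.23, or 7.48-fold, with 10.5-fold in libraries 1 and 2 and 5.63-fold in libraries 3 and 4. As in TAGLN, the controls were higher in libraries 3 and 4 and ASO-L1 was higher in libraries 1 and 2.

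The YAP targets CTGF and CYR61 had smaller differences than FLNC. CTGF had 33.1, 32.6, 35.4 and 36.4 CPM in ASO-Ctr, 36.4, 36.5, 39.3 and 36.3 CPM in SO-L1 and 44.1, 40.2, 52.8 and 50.2 CPM in ASO-L1. Its lowest ASO-L1 library, number 2, stood just above the highest SO-L1 library. CTGF was 1.36-fold higher than in ASO-Ctr (log2 fold change 0.45 ± 0.08), with 1.28-fold in libraries 1 and 2 and 1.44-fold in libraries 3 and 4. This was the smallest of the 7 differences called.

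CYR61 had 19.1, 19.3, 25.9 and 26.5 CPM in ASO-Ctr and 22.7, 20.5, 30.4 and 27.8 CPM in SO-L1. In ASO-L1 it had 41.1, 42.0, 52.1 and 52.6 CPM. Libraries 3 and 4 were the higher ones in all groups, and no ASO-L1 library overlapped a control. CYR61 was 2.07-fold higher in ASO-L1 (log2 fold change 1.05 ± 0.15), and the sets were alike at 2.16-fold and 2.001-fold.

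EMP1 was the least abundant of the 10 genes per length. It had 2.95, 2.80, 7.64 and 7.60 CPM in ASO-Ctr and 4.69, 3.75, 11.01 and 9.75 CPM in SO-L1, but 23.9, 23.1, 26.4 and 24.2 CPM in ASO-L1. The controls of libraries 3 and 4 were more than 2 times those of 1 and 2, and the ASO-L1 libraries were nearly equal. The log2 fold change from ASO-Ctr was 2.21 ± 0.37 (4.63-fold), with the largest standard error of the 10 genes. The sets gave 8.17-fold and 3.33-fold, on 518 counts in all ASO-Ctr libraries and 2687 in all ASO-L1 libraries.

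**Figure D2:**
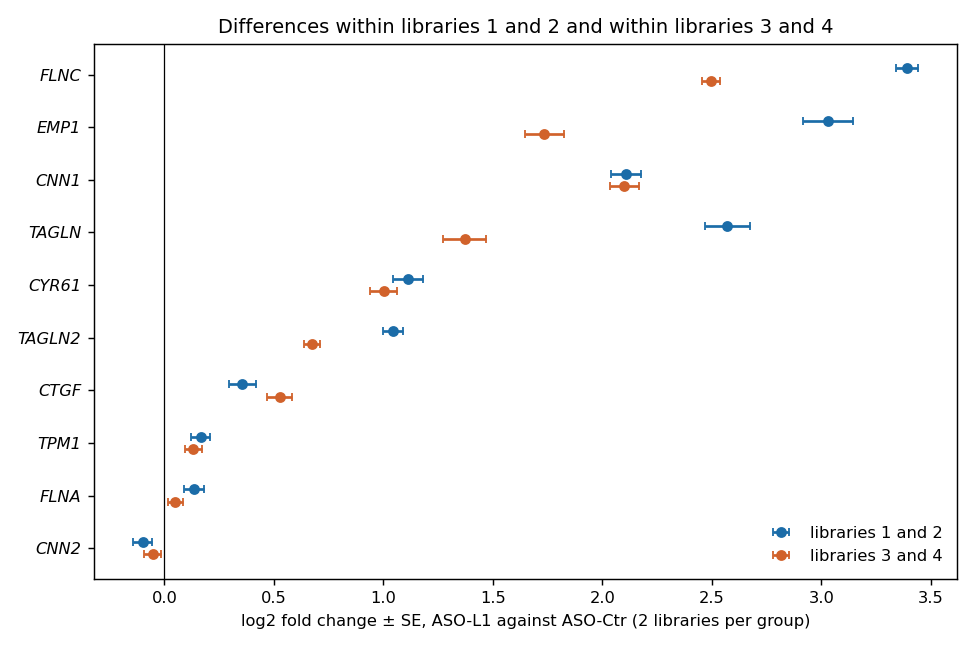
Log2 fold change of ASO-L1 over ASO-Ctr (horizontal axis, with SE as bars) for each of the 10 genes, fitted within libraries 1 and 2 (blue) and within libraries 3 and 4 (orange), 2 libraries per group. FLNC, EMP1, TAGLN and TAGLN2 lie farther from 0 in libraries 1 and 2, while CNN1 has the same value in both, 4.31-fold and 4.29-fold.

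In the plot of differences within the 2 sets FLNC, EMP1, TAGLN and TAGLN2 differed more in libraries 1 and 2, CTGF differed more in libraries 3 and 4, and CNN1 and CYR61 had like differences in both. All 7 genes had lower ASO-Ctr levels in libraries 1 and 2 than in 3 and 4. Whether the sets differ was not tested for these genes, since their values had chosen them. A deposited table of log2 values that its name calls batch corrected was read beside log2 CPM. For CNN1 the SD over the 4 ASO-L1 libraries was 0.14 in log2 CPM and 0.052 in the authors' corrected values. For FLNC in ASO-L1 the SD was 0.12 in log2 CPM and 0.35 in the corrected values. For EMP1 in ASO-L1 it was 0.082 and 0.43. In ASO-Ctr the SD was smaller in the corrected values for all 3, at 0.15 and 0.015 for CNN1, 0.40 and 0.17 for FLNC and 0.80 and 0.32 for EMP1. The 2 scales may differ in normalisation as well as in the correction, and the part of each was not tested.

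Against the sense oligo, again 7 of the 10 genes were called higher and none lower, with 20.3% of all genes called, 10.7% higher and 9.64% lower. They were the same 7. All 4 ASO-L1 libraries lay above all 4 SO-L1 libraries in each of them, as in 12.7% of all genes. This comparison shares the ASO-L1 libraries with the one before, so the 2 are not independent. The fold was 6.30 for FLNC, 3.92 for CNN1, 3.67 for TAGLN and 3.30 for EMP1. It was 1.85 for CYR61, 1.69 for TAGLN2 and 1.26 for CTGF. FLNA, TPM1 and CNN2 differed by 1.08-, 1.08- and 0.992-fold, with overlapping groups. With the replicate block 9 of the 10 were called, beside 43.4% of all genes. The authors' deposited table for ASO-L1 against SO-L1 gave log2 fold changes of 2.68 for FLNC, 1.97 for CNN1, 1.85 for TAGLN and 1.74 for EMP1. The values computed here were 2.66, 1.97, 1.88 and 1.72. For CTGF, the authors' deposited table and the value computed here both gave 0.33. FLNA had an adjusted p of 0.029 in the authors' deposited table, which passes the threshold, and of 0.181 in the edgeR fit here, which does not.

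Over all 12 libraries edgeR called none of the 10 genes between the 2 kinds of control, without or with the replicate block. Of all genes it called 0.029% and 1.41% (0.424% higher and 0.987% lower with the block). DESeq2 and limma-voom also called 0 of the 10. In edgeR over all 12 libraries 0 had an unadjusted p under 0.05, a threshold at which the share of all genes was not counted. Fitted within a set, with 2 libraries per group, edgeR called 0 of the 10 in libraries 1 and 2 and 2 in libraries 3 and 4. Over all genes the 2 fits called 124 and 201. The 2 groups overlapped in all 10 genes. EMP1 had the largest difference of SO-L1 over ASO-Ctr, 0.49 ± 0.38 in log2 fold change, followed by FLNC with 0.25 ± 0.22. SO-L1 was the higher of the 2 in 4 of 4 same-number pairs in CNN1, CYR61, EMP1, FLNC and TAGLN2, as in 9.58% of all genes tested. For EMP1 the pairs ranged from 1.28- to 1.59-fold.

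**Figure D3:**
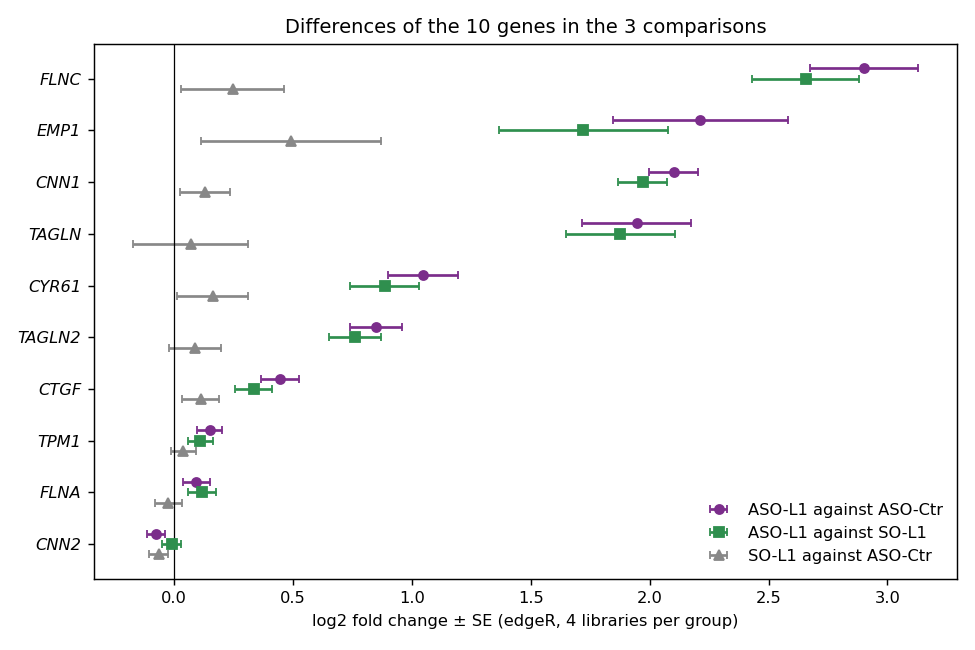
Log2 fold change (horizontal axis, with SE as bars, 4 libraries per group) of the 10 genes in the 3 comparisons. Against both controls FLNC is farthest from 0 (2.90 and 2.66) and CNN2 lies below it (-0.08 and -0.01), and the grey points for SO-L1 against ASO-Ctr lie between -0.07 and 0.49.

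Levels of different genes can be compared once divided by length. Per kilobase of merged exons, FLNA stood first in every group, at 187 CPM per kb in ASO-Ctr and 199 in ASO-L1. TAGLN2 was second with 97.7 and 176, and CNN2 in 3rd place with 95.0 and 90.1. FLNC moved from 7th place with 8.60 CPM per kb in ASO-Ctr to 4th with 64.3 in ASO-L1, and CNN1 from 8th with 7.62 to 5th with 32.7. TAGLN remained 9th, at 2.28 and 8.78, and EMP1 10th, at 0.791 and 3.67. In ASO-Ctr the neighbours TAGLN2 and CNN2 differed by less than their spread over libraries, as did CYR61, FLNC and CNN1 with 9.92, 8.60 and 7.62 CPM per kb. In ASO-L1 the same held for the neighbours TPM1, CYR61 and CTGF with 22.5, 20.5 and 20.02 CPM per kb. Even at its ASO-L1 level the muscle filamin FLNC remained below FLNA.

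The other genes of these pathways were taken from 5 lists of textbook genes without the 10, in all 108 genes of the table, of which 102 were tested. In ASO-L1 against ASO-Ctr 32 rose and 10 fell, or 42 of 102 beside the 22.3% of all genes called. With the replicate block 46 rose and 20 fell, beside 45%. Their median log2 fold change was 0.06. The lists were drawn up when some of these values were already known, and nothing particular to them is drawn from the counts.

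Of 25 other SRF target genes of actin and contraction, 9 rose and 2 fell, beside 11.6% and 10.7% of all genes. The list's median log2 fold change was 0.15. PDLIM7, a scaffold protein of actin bundles, rose from 53.5 ± 4.28 to 99.7 ± 5.80 CPM (SD, n = 4 each; log2 fold change 0.90 ± 0.07, adjusted p = 2.8e-06). MYH9, the heavy chain of non-muscle myosin IIA, rose from 503 ± 20.3 to 681 ± 52.5 CPM (0.44 ± 0.05, adjusted p = 8.5e-05). ZYX, the focal adhesion protein zyxin, and ITGA5, the fibronectin receptor subunit, rose by 0.52 ± 0.07 and 0.60 ± 0.08. The 2 that fell, named after their values were seen, were MYLK, the myosin light chain kinase, with -0.39 ± 0.11, and TLN1, talin, with -0.22 ± 0.05. ACTB, the main cytoplasmic actin, was at 0.06 and VCL, vinculin, at -0.08, neither past the threshold (both also named after their values were seen). Of the other actin genes in the list, ACTA1 (0.74 ± 0.11), ACTC1 (0.72 ± 0.17) and ACTG1 (0.16 ± 0.05, adjusted p = 0.043) were called higher. ACTA2 (-0.22 ± 0.43) and ACTG2 (0.05 ± 0.36) were not called. VCL was called lower with the replicate block (-0.08 ± 0.03, adjusted p = 0.019). The replicate block raised the list's counts to 13 higher and 5 lower, beside 22.5% of all genes in each direction. Against SO-L1 the list had 7 higher and 0 lower without the block, beside 10.7% and 9.64% of all genes. MYLK (adjusted p = 0.059) and TLN1 (0.0503) did not pass in that fit. With the block the counts against SO-L1 were 12 and 4, beside 21.6% and 21.7%.

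Of 24 other YAP and TEAD target genes 21 were tested, and 10 rose and none fell, with a median of 0.28. Over all genes tested 11.6% rose and 10.7% fell. At an unadjusted p under 0.05 in edgeR 12 were higher and 0 lower. The share of all genes at that threshold was not counted, so nothing is read from this. ANKRD1, an ankyrin repeat protein of muscle and a standard YAP target, had 0.239 to 0.541 CPM in ASO-Ctr, on 42 counts in all. In ASO-L1 it had 16.9, 15.1, 3.86 and 3.66 CPM, higher in libraries 1 and 2 than in 3 and 4. ANKRD1 rose by 4.52 ± 0.59 in log2 fold change (adjusted p = 1.7e-04), with 5.44 in libraries 1 and 2 and 2.94 in libraries 3 and 4.

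GADD45A, a stress and DNA damage response gene, rose from 23.5 ± 3.06 to 61.8 ± 18.4 CPM (log2 fold change 1.39 ± 0.18, adjusted p = 1.5e-04). Its ASO-L1 libraries were higher in the other set, 79.3 and 75.7 CPM in libraries 3 and 4 against 42.6 and 49.6 CPM in 1 and 2. AJUBA, a LIM protein of junctions that binds LATS kinases, rose by 0.79 ± 0.07 (adjusted p = 1.1e-05). AMOTL2, F3, NUAK2, MYOF, LATS2 and AXL also rose. THBS1 and CRIM1, further targets in the list named with their values known, were at 0.11 and 0.01 and did not pass.

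The genes that carry the Hippo signal moved in both directions and by less. Of 22 regulators 3 rose and 4 fell, with a median of -0.04, beside 11.6% and 10.7% of all genes. The replicate block raised these counts to 6 and 9, beside 22.5% of all genes in each direction. WWTR1, which encodes TAZ, fell from 51.6 ± 5.59 to 38.8 ± 2.58 CPM (log2 fold change -0.41 ± 0.09, adjusted p = 0.0065). MAP4K4, a kinase upstream of LATS, fell by 0.47 on the log2 scale (adjusted p = 2.9e-04), and LATS1 rose by 0.32 ± 0.05 (adjusted p = 7.8e-04). Among the TEAD factors TEAD2 fell by 0.29 and TEAD4 rose by 0.45. The other 2 calls, STK3 with -0.56 ± 0.13 and LATS2 with 0.28 ± 0.09, are named after their values were seen, and LATS2 also stands in the YAP target list. YAP1 itself had 191 ± 15.3 CPM in ASO-Ctr and 178 ± 23.9 CPM in ASO-L1, a log2 fold change of -0.10 ± 0.09 (adjusted p = 0.513). With the replicate block the value for YAP1 was -0.10 ± 0.03 (adjusted p = 0.0082). TEAD1, at -0.16 (adjusted p = 0.454), and TEAD3, at 0.22 (adjusted p = 0.116), passed with the replicate block, with adjusted p of 0.0052 and 0.0011.

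Of 25 SRF cofactors and genes from the RHOA family to actin, 6 rose and 4 fell, beside 11.6% and 10.7% of all genes. The list's median log2 fold change was 0.05. RHOB, a small GTPase related to RHOA whose own gene is switched on within minutes to hours of stress and growth factors, had 91.4, 90.8, 81.0 and 80.7 CPM in ASO-Ctr and 96.9, 100.05, 93.4 and 94.6 CPM in SO-L1. In ASO-L1 it had 260, 256, 252 and 258 CPM. RHOB rose by 1.58 ± 0.05 in log2 fold change (adjusted p = 1.7e-09), with little spread in any group. With the replicate block RHOB was also called in SO-L1 against ASO-Ctr, at 0.16 ± 0.03 (adjusted p = 0.0058). CFL2, the muscle cofilin that severs actin filaments, rose by 0.87 ± 0.06, and ARHGEF2, a microtubule-bound activator of RhoA, by 0.60 ± 0.07.

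The 2 ROCK kinases moved apart: ROCK1 fell by 0.26 (adjusted p = 0.0018) and ROCK2 rose by 0.28 (adjusted p = 0.0018) on the log2 scale. RHOA, the main small GTPase of contractility, was at -0.05 ± 0.07 (adjusted p = 0.708). SRF had 116 ± 2.85 CPM in ASO-Ctr and 124 ± 0.410 CPM in ASO-L1, a log2 fold change of 0.09 ± 0.04 (adjusted p = 0.135). SRF had an adjusted p of 0.026 with the replicate block, at the same size. Of its cofactors MKL1 fell by 0.20 (adjusted p = 0.028) and MKL2 was at 0.10 ± 0.11 (adjusted p = 0.56). The call of MKL1 was lost without ASO-Ctr library 1 (adjusted p = 0.064) or 2 (0.083), and without ASO-L1 library 3 (0.078) or 4 (0.085). MYOCD, the cofactor of muscle, and DIAPH3, a formin, are the other 2 that fell, with -1.005 ± 0.33 and -0.18 ± 0.06. MYOCD was under 1 CPM, on 76 counts over the ASO-Ctr libraries and 42 over the ASO-L1 libraries (adjusted p = 0.044). Against SO-L1 MYOCD was not called (-0.52 ± 0.35, adjusted p = 0.34), and DIAPH3 was (-0.19 ± 0.06, adjusted p = 0.024).

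Among 13 relatives of the 10 genes 10 were tested, and 5 rose and none fell, beside 11.6% and 10.7% of all genes. At an unadjusted p under 0.05 in edgeR the counts were also 5 and 0, again without a share of all genes. EMP3, a relative of EMP1, had 4.38, 5.50, 7.40 and 6.57 CPM in ASO-Ctr and 32.4, 31.9, 38.7 and 38.6 CPM in ASO-L1. EMP3 rose by 2.56 ± 0.18 in log2 fold change (adjusted p = 9.8e-07), more than EMP1 itself and with less spread between the sets. PMP22, the myelin protein that gives the family its name, rose by 1.03 ± 0.25 (adjusted p = 0.0097). EMP2 rose by 0.31 ± 0.10 (adjusted p = 0.037). The call of EMP2 was lost without any 1 of ASO-Ctr library 1 (adjusted p = 0.096), 2 (0.11) or 4 (0.051) and of ASO-L1 library 3 (0.099) or 4 (0.10).

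NOV, another CCN protein, rose from 1.92 ± 0.738 to 5.34 ± 1.43 CPM (1.47 ± 0.30, adjusted p = 0.0033). CNN3, the remaining calponin, rose by 0.31 ± 0.04 (adjusted p = 5.6e-05). The other tropomyosins TPM2, TPM3 and TPM4 had log2 fold changes of 0.01, 0.03 and -0.02, none past the threshold, at 124, 742 and 679 CPM in ASO-L1. The neuronal transgelin TAGLN3, at about 1 CPM, had -0.54 ± 0.31 (adjusted p = 0.259), and -0.54 ± 0.20 with the replicate block (adjusted p = 0.026).

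**Figure D4:**
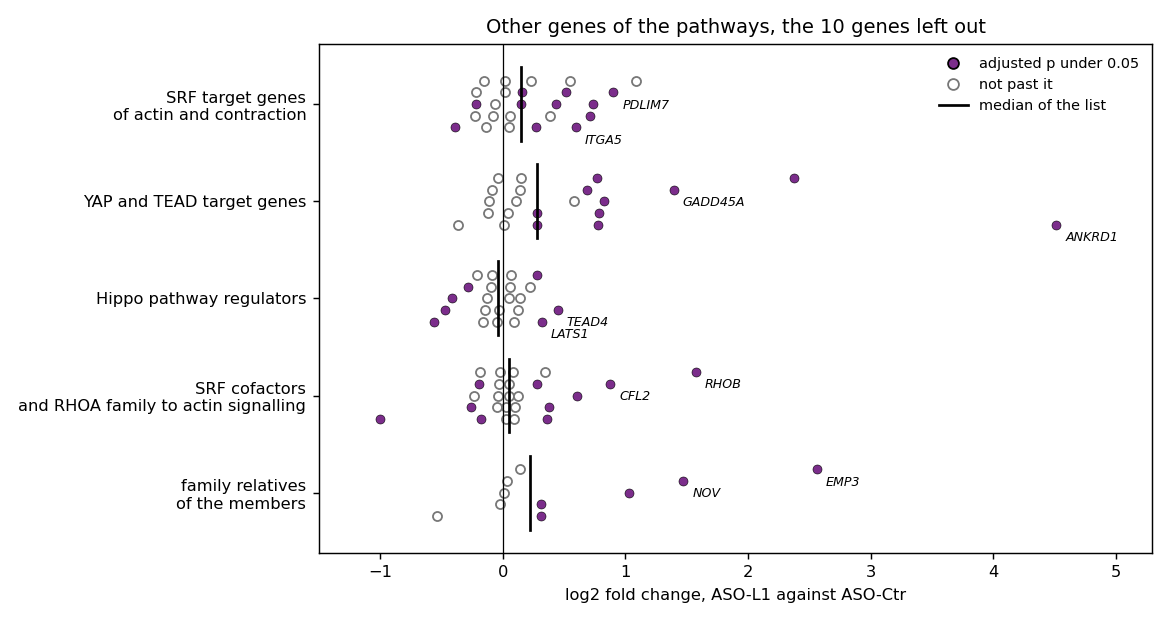
Log2 fold change of ASO-L1 over ASO-Ctr (horizontal axis) for each tested gene of the 5 lists, the 10 genes left out; filled points passed an adjusted p of 0.05 without the replicate block, and vertical bars mark each list's median. The medians lie between -0.04 for the Hippo regulators and 0.28 for the YAP and TEAD targets, with single genes such as ANKRD1, EMP3 and RHOB far to the right.

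Against SO-L1, 29 of the 102 pathway genes rose and 7 fell, beside 10.7% and 9.64% of all genes. SO-L1 against ASO-Ctr had 0 calls among the 102 by edgeR, DESeq2 or limma-voom. At an unadjusted p under 0.05 in edgeR there were 2, the share of all genes not being counted. The replicate block gave 3 calls, beside 1.41% of all genes. Besides RHOB these were AMOT (0.24 ± 0.06) and DIAPH2 (-0.12 ± 0.03), named after their values were seen.

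Several of these genes are also known from other cell types that a culture of hESC can hold, and the markers of 3 such types were read in the same libraries. Of 9 fibroblast and feeder markers 5 were under 1 CPM in every group, among them DCN, LUM and FAP, and the summed level was 255 to 383 CPM in ASO-Ctr, 242 to 367 CPM in SO-L1 and 301 to 399 CPM in ASO-L1. COL1A1 was the 1 that rose, by 0.80 ± 0.26 in log2 fold change (adjusted p = 0.043), and COL1A2 was at -0.18. All 4 tested markers of this list were called with the replicate block, COL1A1 and THY1 higher and COL1A2 (adjusted p = 5.6e-05) and POSTN (adjusted p = 0.032) lower. In that fit 45% of all genes were called. The 7 smooth muscle markers summed to 17.4 to 26.0 CPM in ASO-Ctr, 19.1 to 27.0 CPM in SO-L1 and 22.6 to 28.7 CPM in ASO-L1. Of the 7, SMTN, the cytoskeletal protein smoothelin, rose by 0.27 ± 0.08 (adjusted p = 0.023) and MYOCD fell, as given above. The replicate block gave 3 calls higher, SMTN, LMOD1 (1.06 ± 0.37, adjusted p = 0.019) and DES (0.30 ± 0.09, adjusted p = 0.0058). It gave 1 lower, MYOCD, beside 22.5% of all genes in each direction. MYH11 and ACTA2 of the same list had 1.08 and 0.751 CPM in ASO-Ctr and 1.09 and 0.635 CPM in ASO-L1. Their log2 fold changes had wide errors (0.02 ± 0.36 and -0.22 ± 0.43), and neither passed in either fit. Against SO-L1, 0 of the 7 smooth muscle markers were called without the block, beside 20.3% of all genes. With the block 1 was called there, higher, beside 43.4% of all genes.

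Of 11 markers of amnion and trophectoderm 6 were under 1 CPM in every group, and the summed level was 533 to 651 CPM in ASO-Ctr, 545 to 684 CPM in SO-L1 and 877 to 940 CPM in ASO-L1. Nearly all of that sum was KRT8 and KRT18, keratins of simple epithelia in general, with means of 478 and 108 CPM in ASO-Ctr and 741 and 156 CPM in ASO-L1. Of the 6 tested, KRT7, KRT8, KRT18 and GATA2 rose, by 0.95, 0.63, 0.53 and 1.03 on the log2 scale, beside 11.6% of all genes. GATA3, TFAP2A and CDX2 did not reach the count filter. Of the 7 pluripotency markers SOX2, POU5F1, LIN28A and SALL4 fell, by 0.23, 0.18, 0.18 and 0.18. All 7 were called lower with the replicate block, NANOG (adjusted p = 0.018), DPPA4 (0.0038) and TDGF1 (1.2e-06) being added. Over all genes 10.7% were called lower without the block and 22.5% with it. Against SO-L1, 2 of the 7 were called lower without the block and 6 with it, beside 9.64% and 21.7% of all genes. Without the block LIN28A (adjusted p = 0.077) and SALL4 (0.10) did not pass against SO-L1, nor did KRT7 (0.077). The part of these changes in the levels of the 10 genes was not tested. In these bulk samples a different share of cells and a different amount of RNA per cell cannot be told apart.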

How the data were processed

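RNA sequencing libraries of 12 samples (3 groups of 4) were analysed. Per the submitters' processing notes, Trim Galore 0.4.0, TopHat2 2.0.13 and featureCounts of Subread 1.5.0 were used with build hg19; their settings are not given in the sources used here. Raw whole-number counts by gene symbol were deposited in the main table, whose name is tagged rmDup without saying what was removed. Its header is shifted by 1 field, so columns were read by position under the names the header gives them. A row without a name, with 10 counts in all, was left out. A second table holds log2 normalised values that the authors deposited as batch corrected, by a method not given. The authors' deposited comparison of ASO-L1 with SO-L1 gives log2 fold changes, a p-value and its adjusted form.

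Counts were fitted in R 4.3.3 with edgeR 4.0.16 (quasi-likelihood, robust, TMM, filterByExpr with at least 10 counts and 15 in all, group means only, all 12 libraries). P-values are two-sided and Benjamini-Hochberg adjusted over all 17228 genes, at 0.05. The script was tested on simulated data. Alternatives were DESeq2 1.42.0, limma 3.58.1 (voom), RLE size factors, no filter, a replicate block, each set of numbers alone and leaving out each library. The data show the 2 sets but do not clearly separate the replicate numbers within them. Same-number libraries correlated at 0.450 to 0.561 after group means were removed, and numbers 1 with 2 and 3 with 4 at 0.455 to 0.543. Of 12 libraries 8 correlated best with a library of their own number. The block and the same-number pairs therefore follow the labels. No 2 libraries of a group agreed within sampling noise (chi-square per degree of freedom 1.86 to 33.3). ASO-Ctr library 2 was the farthest from others of its group.

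The 10 genes and all lists were chosen with earlier results of these data known. Named pathway genes are up to 4 called genes per list with the smallest p, YAP1, WWTR1, the TEAD genes, SRF, MKL1, MKL2, RHOA, RHOB, ROCK1, ROCK2 and all relatives that passed the filter; 2 genes this rule names are not reported here. The 5 genes most alike in pattern are in the closing section. Exon lengths and overlaps come from GENCODE v29, which may not be the annotation of the counts, and promoters from RefSeq. Standard errors cover the spread between libraries, and their number limits the precision.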

Additional observations from a re-analysis of the deposited data

Results flagged for a closer look

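In TAGLN2, library 1 of ASO-L1 had 355.4 CPM while the other 3 libraries of that group lay between 336 and 339 CPM, a gap beyond the 95% critical value of Dixon's test for 4 samples (0.829). In CTGF, library 3 of SO-L1 had 39.3 CPM while the other 3 had 36.3 to 36.5 CPM, which passed the same test. Of 30 groups examined (10 genes in 3 groups) 2 stood out in this way, and chance gives about 1 in 20.

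In CNN2 the difference of ASO-L1 from SO-L1 had opposite directions in the 2 sets of libraries. ASO-L1 was higher in libraries 1 and 2, by 1.04- and 1.02-fold, and lower in libraries 3 and 4, at 0.945- and 0.976-fold. The mean log2 differences of the sets were 0.097 apart. The difference between the sets was not tested.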

How the results depend on the processing

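With the replicate block the genes called numbered 7747 (ASO-L1 against ASO-Ctr), 7469 (ASO-L1 against SO-L1) and 243 (SO-L1 against ASO-Ctr), and the pathway genes called 66, 67 and 3. The main counts were 3847, 3497 and 5, and 42, 36 and 0. Among genes named in the report the block added calls in ASO-L1 against ASO-Ctr, those of TAGLN3, YAP1, TEAD1, TEAD3, SRF, VCL, COL1A2 and NANOG among them, and ended none. Libraries 1 and 2 alone gave 6045, 5863 and 124 genes and 64, 63 and 1 pathway genes. Libraries 3 and 4 alone gave 6103, 5861 and 201 genes, 1 pathway gene in SO-L1 against ASO-Ctr and 2 of the 10 genes there. In SO-L1 against ASO-Ctr, DESeq2 called 52 genes and the fit without a filter 8. Leaving out each library gave 3131 to 3861, 2741 to 3446 and 5 to 7 genes, 35 to 42, 31 to 36 and 0 pathway genes, and 7 to 8, 7 and 0 of the 10. The count of 8 came without ASO-Ctr library 2 and without ASO-L1 library 3. With RLE size factors, DESeq2, limma-voom and no filter the 10 genes moved by less than the spread between libraries. Without a filter MKL1 was not called (adjusted p = 0.075). Directions against ASO-Ctr turned in 4 uncalled genes: with libraries 3 and 4 alone TPM2 (-0.016) and MKL2 (-0.034), and without 1 library TPM2 (-0.042 to 0.053), TPM4 (-0.048 to 0.0048) and RHOA (-0.097 to 0.0048). The causes were not tested. The ASO-Ctr levels of TAGLN and EMP1 rest on 60 to 192 counts per library.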

Other observations

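Of all genes outside the 10, those whose log2 CPM followed the mean standardised profile of the 10 most closely over the 12 libraries were PIP4K2C, CDH16, AGPAT3, ELF4 and ATF5, with Pearson's r of 0.992, 0.991, 0.991, 0.990 and 0.989. The 12 points share their 3 groups and the 2 sets of libraries, so this is a description. ATF5, which encodes a stress-induced bZIP factor, had means of 24.9 ± 1.80 CPM (ASO-Ctr), 25.4 ± 2.49 CPM (SO-L1) and 95.5 ± 1.27 CPM (ASO-L1; SD, n = 4 each). ELF4, an ETS family transcription factor, had 9.25 ± 0.749, 9.26 ± 1.81 and 29.7 ± 1.18 CPM. PIP4K2C, a lipid kinase, had 49.5 ± 1.75, 50.1 ± 2.43 and 62.4 ± 0.727 CPM, and AGPAT3, an acyltransferase of phospholipid synthesis, 8.81 ± 0.439, 9.05 ± 0.874 and 13.4 ± 0.626 CPM. CDH16, a cadherin of kidney epithelium, had 3 counts over all ASO-Ctr libraries, 3 over SO-L1 and 168 over ASO-L1. In all 5 genes each ASO-L1 library lay above every control library. The choice by pattern made this likely, so nothing is read from it. Of all genes tested, 13.3% had all ASO-L1 libraries above those of ASO-Ctr and 12.7% above those of SO-L1.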
